A study of Mus musculus with 4 samples.

Results

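The genes described here encode the collagens of the cartilage fibril and of hypertrophic cartilage: Col2a1 (type II), Col9a1, Col9a2 and Col9a3 (type IX), Col10a1 (type X), Col11a1 and Col11a2 (type XI) and Col27a1 (type XXVII). They were examined in 2 deposited lists of 5-hydroxymethylcytosine (5hmC) peaks. A peak counted for a gene when the authors' annotation gave it that gene's symbol, and for Col10a1 also when it overlapped the gene (chromosome 10, 34389981 to 34397085, GRCm38). This took 26 of the 57745 peaks in both lists. The cells were ATDC5, a single mouse chondrogenic cell line. Chondroprogenitors at day 0 were kept in medium with serum and ascorbic acid. Chondrocytes had insulin, transferrin and selenite added to the same medium and were taken at day 19 (1 library) or day 20 (1 library). There were 4 libraries, 2 for each stage, of DNA captured chemically for 5hmC. The libraries of a stage were merged by the authors before the peaks were listed, and the sources used here do not say whether the day 19 library entered the day 20 list. Each stage is therefore 1 list with no replicate spread, and no difference below carries a test.

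Type II collagen forms the bulk of the cartilage fibril. Type XI chains assemble with it and limit fibril width, and type IX collagen sits on the fibril surface, bound covalently to type II molecules. Type XXVII is a fibrillar collagen with a short triple helix found in cartilage, and type X forms a network around hypertrophic chondrocytes in cartilage that is about to mineralise. TET enzymes make 5hmC by oxidising 5-methylcytosine. It is found mainly at CG dinucleotides in mammals and tends to mark the bodies of active genes and enhancers. The lists hold no expression values, so the labelled cell type could not be checked against its markers. Of 6 chondrocyte marker genes, 4 held a day 20 peak in the gene body (Sox9, Acan, Hapln1 and Comp), against 40.5% of protein-coding genes, and Matn1 and Cnmd held none. Of these, 2 (Sox9 and Hapln1) also held a day 0 peak, against 1.76%.

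At day 20, 7 of the 8 collagen genes held at least 1 peak overlapping the gene body, against 40.5% of all 21900 protein-coding genes. By the authors' symbols 6 of 8 did, against 43.9%, and with gene bodies widened by 5 kb at either end 7 of 8 did, against 50.8%. Col27a1 held 10 peaks, Col9a1 and Col11a1 held 5 each, Col11a2 held 3, Col2a1, Col9a2 and Col10a1 held 1 each, and Col9a3 held 0. The median was 2 peaks per gene, against 0 over all protein-coding genes. Peak number follows gene length, so each gene was also set beside the 2190 protein-coding genes of its own length decile. Among the long genes, Col11a1 (190.3 kb) and Col27a1 (121.0 kb) belong to a decile in which 81.9% of genes held a day 20 peak, and Col9a1 (75.2 kb) to one with 76.2%. Peaks in these 3 genes were thus the usual case for their length. Among the shorter genes, the share was 52.6% for the decile of Col2a1 (29.1 kb) and Col11a2 (27.8 kb), 41.2% for that of Col9a3 (24.1 kb), 34.8% for that of Col9a2 (15.8 kb) and 16.8% for that of Col10a1 (7.11 kb).

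At day 0 none of the 8 genes held a peak, against 1.76% of protein-coding genes. The 100 kb on both sides of each gene held no day 0 peak either, while 9.43% of protein-coding genes had a day 0 peak in the gene body or in those flanks. The day 0 list held 1050 peaks and the day 20 list 56695, so a gene without a day 0 peak is the usual case and says little about the stage. The nearest day 0 peak lay 388.1 kb from Col2a1, a peak of 81 bp from 97587399 to 97587479 on chromosome 15. It lay 716.9 kb from Col27a1, 1295.1 kb from Col9a3 and 1884.3 kb from Col9a2. For Col11a2 it was 2224.7 kb away, for Col10a1 2866.7 kb, for Col9a1 10001 kb and for Col11a1 11007.6 kb. No day 20 peak in these genes or their flanks was shared with day 0.

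**Figure D1:**
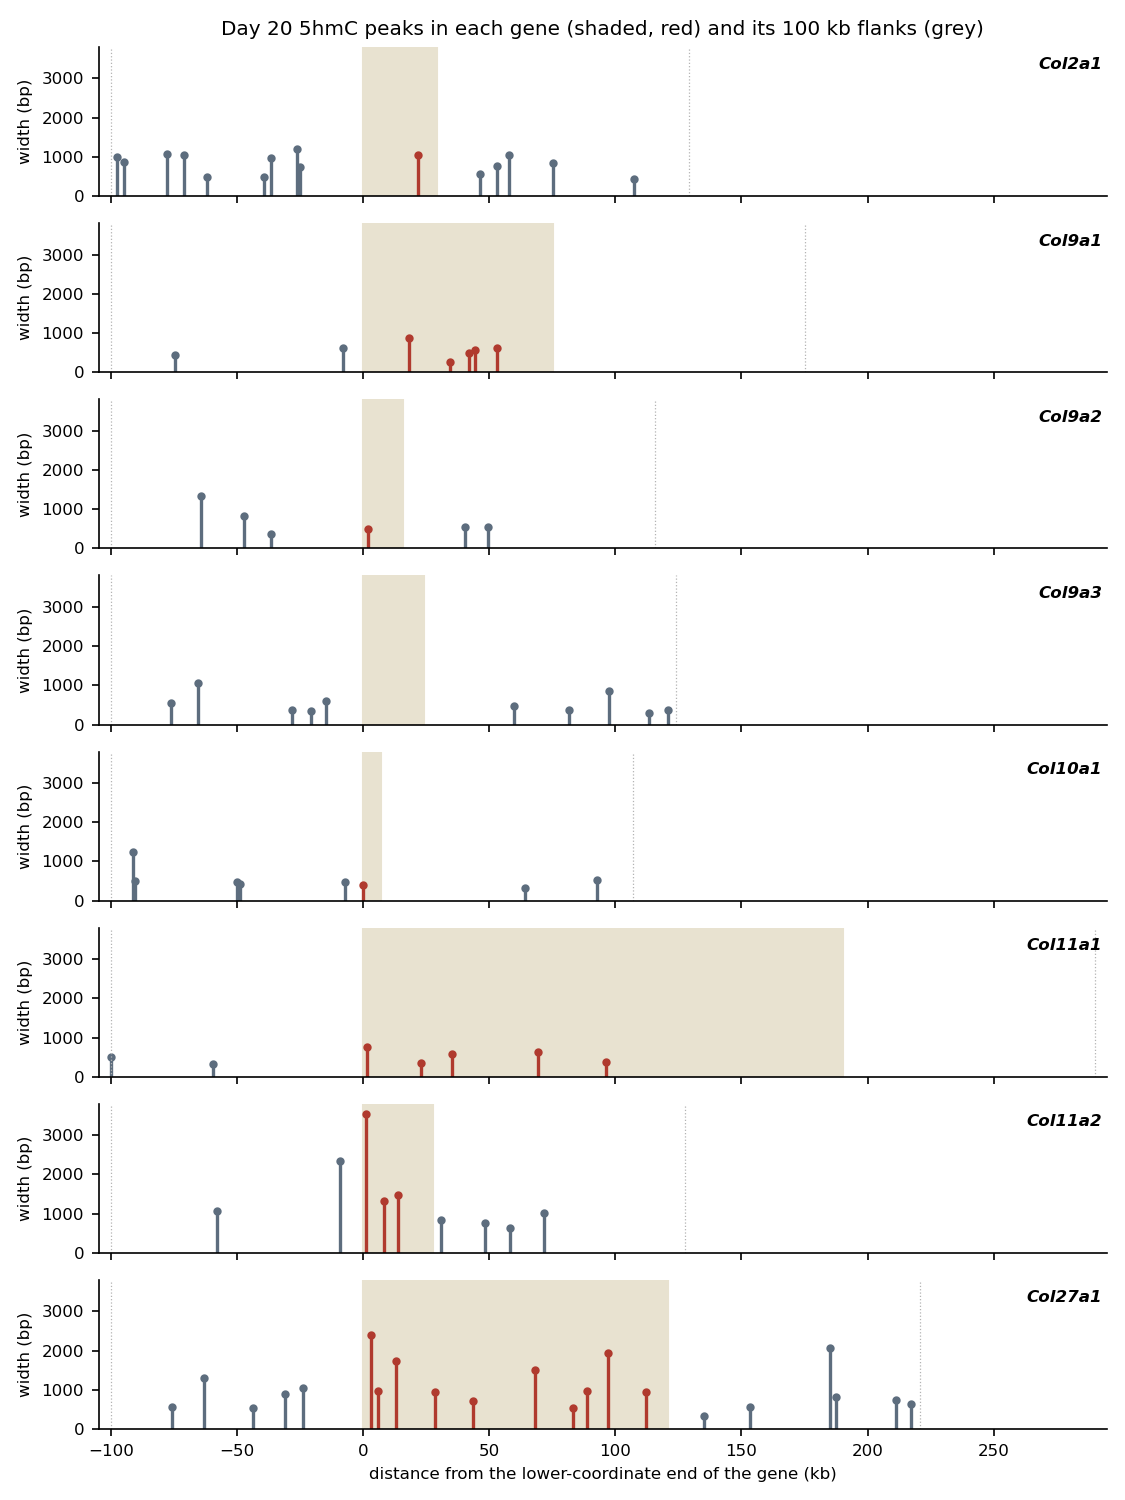
Each panel is 1 collagen gene. The x axis is the distance in kb from the lower-coordinate end of the gene, the shaded box is the gene body, the dotted lines mark 100 kb beyond each end, and each stem is 1 day 20 peak with its width in bp on the y axis (red in the gene, grey in the flanks). Col27a1 holds 10 peaks along most of its length, the 5 peaks of Col11a1 lie in its left part, and Col9a3 has peaks in both flanks but none in the gene.

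A peak lay at or just after a listed transcription start in each collagen gene whose start was available, at Col9a1 only the second of 2. RefSeq start windows of GRCm38.p6, each 250 bases before to 50 bases after an annotated start, were matched for 6 of the 8 genes, with 2 starts for Col9a1 and 1 for each of the others. No window was matched for Col2a1 and Col9a3. All 6 genes lie on the plus strand. Each of the 6 had a day 20 peak within 2 kb after a listed start, against 11.9% of the 17492 protein-coding genes with a window and 29.4% of those that also held a day 20 peak in the gene body. The 2 kb limit was chosen after the peak positions were seen. Within 1 kb the number was 4 of 6, against 7.8%, and within 5 kb it was 6 of 6, against 19.4%. A gene with several listed starts has more chances, and among genes with a single start 9.75% had a peak within 2 kb. The 5 collagen genes with a single start are all among those with a peak. These counts depend on which starts are listed. At Col9a1 the first start had no peak within 5 kb after it. The listed Col27a1 start (63215412) lies inside the annotated gene, which begins at 63214009. The first Col27a1 peak began at 63216030, just beyond 2 kb from that end, and its midpoint lay 3.22 kb from it. Counted from that end, Col27a1 would therefore miss the 2 kb limit and fall within the 5 kb one.

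At Col10a1 and Col11a2 the peak covered the start itself. A day 20 peak over a start window was present in 4.2% of protein-coding genes with a window. At Col11a2 the peak covered 300 of the 300 bases and 16 of 16 CG, and at Col10a1 it covered 287 bases and 6 of 6 CG. The windows are printed 5′ to 3′ with every CG in capitals, since CG is where most mammalian 5hmC is found. The Col10a1 and Col11a2 windows are shown because they lie under a peak. Both Col9a1 windows are shown because the peak follows the second start and not the first, and the Col27a1 window because it has the most CG of the 7 and lies just outside a wide peak.
Col11a2, chr17:34038888-34039187, plus strand: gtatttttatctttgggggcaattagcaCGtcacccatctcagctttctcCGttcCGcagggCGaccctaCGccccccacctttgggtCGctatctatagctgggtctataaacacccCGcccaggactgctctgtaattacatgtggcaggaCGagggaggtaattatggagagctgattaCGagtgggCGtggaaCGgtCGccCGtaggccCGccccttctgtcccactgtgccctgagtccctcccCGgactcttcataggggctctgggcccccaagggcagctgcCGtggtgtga
Col10a1, chr10:34389731-34390030, plus strand: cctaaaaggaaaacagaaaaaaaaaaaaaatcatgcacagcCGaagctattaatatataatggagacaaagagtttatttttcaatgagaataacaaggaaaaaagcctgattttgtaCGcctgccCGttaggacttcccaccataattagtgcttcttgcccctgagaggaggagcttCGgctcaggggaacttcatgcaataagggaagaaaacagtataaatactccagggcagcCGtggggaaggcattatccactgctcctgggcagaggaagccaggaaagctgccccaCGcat
Col9a1 first start, chr1:24177360-24177659, plus strand: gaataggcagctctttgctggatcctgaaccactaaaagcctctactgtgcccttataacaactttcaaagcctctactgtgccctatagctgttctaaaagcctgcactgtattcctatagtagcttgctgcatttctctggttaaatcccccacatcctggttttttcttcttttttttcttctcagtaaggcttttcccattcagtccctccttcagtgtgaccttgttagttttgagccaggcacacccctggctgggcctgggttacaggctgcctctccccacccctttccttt
Col9a1 second start, chr1:24194953-24195252, plus strand: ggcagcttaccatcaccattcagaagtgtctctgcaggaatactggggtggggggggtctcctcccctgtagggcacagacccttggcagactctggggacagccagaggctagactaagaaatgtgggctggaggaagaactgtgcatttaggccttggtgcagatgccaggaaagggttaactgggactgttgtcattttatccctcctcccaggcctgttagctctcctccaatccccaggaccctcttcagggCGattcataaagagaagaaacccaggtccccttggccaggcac
Col27a1, chr4:63215162-63215461, plus strand: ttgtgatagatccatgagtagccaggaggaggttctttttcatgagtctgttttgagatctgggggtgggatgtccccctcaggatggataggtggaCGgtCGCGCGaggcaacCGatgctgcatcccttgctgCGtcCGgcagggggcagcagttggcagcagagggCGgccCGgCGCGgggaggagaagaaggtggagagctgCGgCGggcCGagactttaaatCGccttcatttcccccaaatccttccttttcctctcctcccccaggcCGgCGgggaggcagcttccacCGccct

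The windows differed widely in CG content. The first Col9a1 start had 0 CG and the second had 1, while Col10a1 had 6, Col11a1 9, Col9a2 10, Col11a2 16 and Col27a1 18. Over all 21263 windows the median was 13 (quartiles 4 and 24). Start windows with 3 to 10 CG lay under a day 20 peak in 6.95% of cases, those with 11 to 20 in 3.77%, those with 21 or more in 2.18% and those with 0 to 2 in 1.8%. Col10a1 falls in the first of these classes and Col11a2 in the second. The letters TATAAA, searched on both strands, occurred in the Col10a1 window from base -32 and in the Col11a2 window from base -143, counted from the start base as 0. They occurred in 12.6% of all windows. The letters AACAAT, a core that SOX proteins can bind, occurred on either strand in 0 of the 7 collagen windows and in 9.05% of all windows. A match describes the letters and is not a binding site.

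**Figure D2:**
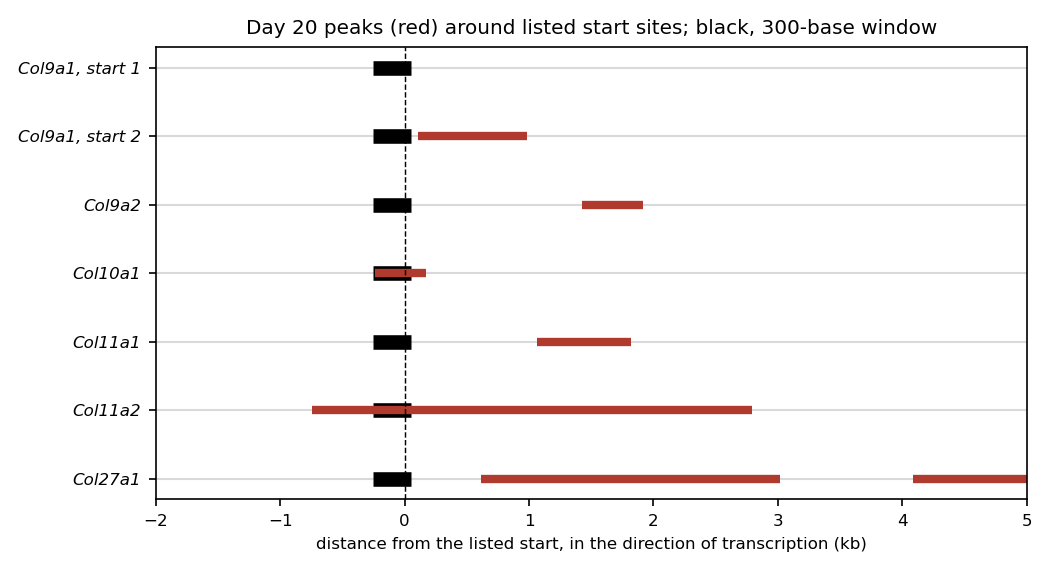
Day 20 peaks (red) from 2 kb before to 5 kb after each listed start, with distance in kb in the direction of transcription on the x axis and 1 row per start. The black bar is the 300-base window; peaks lie over it at Col10a1 and Col11a2, begin 110 bp after the second Col9a1 start, and are absent in this span at the first.

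Col2a1 encodes the chain of type II collagen, and the same chain also enters type XI molecules. The gene (chromosome 15, 97975602 to 98004724) held 1 peak, from 97996754 to 97997802, with a width of 1049 bp. This was wider than the median of 591 bp over the day 20 list and ranked 6018 of 56695. Its midpoint lay 21.7 kb from the lower and 7.45 kb from the higher end of the gene. The same stretch overlaps the noncoding gene Gm46536, so the peak cannot be given to Col2a1 alone. At 0.343 peaks per 10 kb, Col2a1 was near the median of its length decile, 0.29.

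The 2 type XI genes differed from each other. Col11a1 (chromosome 3, 114030479 to 114220756) held 5 narrow peaks of 350 to 754 bp, with a density of 0.263 per 10 kb, against a median of 0.264 in its length decile. They covered 1.41% of the gene, which is also the median of that decile. The first began 1064 bp after the start (114031604 to 114032357), and it was the widest of the 5. The other 4 had midpoints at 12.1%, 18.6%, 36.3% and 50.7% of the gene length, and the last 93.9 kb of the gene held none.

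Col11a2 (chromosome 17, 34038919 to 34066684) is a much shorter gene and held 3 wide peaks. The first ran from 34038391 to 34041933, a width of 3543 bp that ranked 17 of the 56695 day 20 peaks. It began in the end of Rxrb, a retinoid X receptor gene whose annotation ends 0.516 kb before Col11a2. The others spanned 34046609 to 34047925 (1317 bp) and 34051954 to 34053422 (1469 bp), and all 3 had their midpoints in the first part of the gene, up to 49.6% of its length. Together the peaks covered 20.9% of the gene body, and 0.228% of genes in its length decile, Col11a2 included, were covered as much. In number alone Col11a2 stood out less, with 10.8% of the decile holding as many peaks.

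Col27a1 (chromosome 4, 63214009 to 63334991) was the collagen gene with the most peaks, and 9 of its 10 were wider than the list median. The widest, 2403 bp from 63216030 to 63218432, began 618 bp after the listed start and ranked 155 of 56695. The next in width were 1946 bp (63309973 to 63311918), 1745 bp (63225994 to 63227738) and 1497 bp (63281345 to 63282841). The midpoints ran from 2.66% to 92.6% of the gene, with gaps of 2.75 to 24.6 kb between them. The peak at 92.6% (63325544 to 63326484) also overlaps the noncoding gene Gm52743 and cannot be given to Col27a1 alone. Peaks covered 10.5% of the gene, and 1.64% of its length decile, Col27a1 included, was covered as much, although 29.9% of that decile held as many peaks.

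Col27a1 also carries the microRNA gene Mir455 (63256851 to 63256932), whose products are known from cartilage. A peak of 723 bp, from 63257152 to 63257874, began after a gap of 219 bp beyond the annotated end of Mir455. A day 20 peak lay within 1 kb of 10.1% of the 1228 annotated microRNA genes and of 11.9% of those inside a protein-coding gene. The mature sequences from RefSeq, with the seed (bases 2 to 8) in capitals, identify the product of the locus beside that peak.
mmu-miR-455-5p: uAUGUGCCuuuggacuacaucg
mmu-miR-455-3p: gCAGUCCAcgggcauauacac

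The 3 type IX genes each encode a different chain of the same molecule, and they differed in length and in number of peaks. Col9a1 (chromosome 1, 24177589 to 24252738) held 5, Col9a2 (chromosome 4, 121039566 to 121055325) held 1 and Col9a3 (chromosome 2, 180598102 to 180622192) held 0. For their length Col9a1 and Col9a2 were close, with 0.665 and 0.635 peaks per 10 kb and 3.75% and 3.15% of the gene covered. In Col9a1 the widest peak, 878 bp from 24195313 to 24196190, began 110 bp after the second listed start. Col9a1 is known to use an upstream start in cartilage and a downstream start that gives a shorter chain in other tissues, such as the cornea. No peak lay within 5 kb after the upstream start. The other 4 Col9a1 peaks were 252 to 619 bp wide and had midpoints at 45.6%, 55.6%, 58.9% and 70.7% of the gene length. The peak of 252 bp ranked 56423 of 56695 by width and was thus among the narrowest listed. Col9a2 held its peak of 496 bp (121040990 to 121041485) 1424 bp after its start. In the decile of Col9a3, 41.2% of genes held a peak, so its lack of one is no unusual value.

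Col10a1 encodes the single chain of type X collagen and lies inside Nt5dc1, a nucleotidase family gene. The peak from 34389744 to 34390150 was 407 bp wide, of which 170 bp lay inside Col10a1 and the rest before its start. The authors' annotation gave it to Nt5dc1, which overlaps it as well. With the peak midpoint 34 bp before the gene, Col10a1 counts as having a peak by overlap and not by midpoint. The nearest other peak, also in Nt5dc1, lay 7.1 kb before the start (34382394 to 34382880). Beyond the end of Col10a1 the first peak was 56.7 kb away.

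The collagen genes differed in the width of their peaks. Over the 26 peaks the median was 816 bp (quartiles 538.25 and 1250 bp), against 591 bp over the day 20 list and 603 bp over day 20 peaks in protein-coding genes. Peaks wider than 1000 bp made up 8 of the 26 (30.8%), against 12.4% of the list, and all 8 lay in Col11a2, Col27a1 or Col2a1. A peak at least as wide as the list median was present in 5 of the 8 genes, against 26.4% of protein-coding genes. Longer genes have more chances of such a peak, and this count was not set beside length deciles. The median length was 28.4 kb for the 8 genes and 17.1 kb for all protein-coding genes. In Col27a1 and Col11a2 together, 12 of 13 peaks were wider than the list median, and in Col9a1 and Col11a1 together 4 of 10 were. The 6 peaks within 2 kb after a listed start had a median of 816 bp and the other 20 a median of 828 bp, values that pool genes of unlike width. Within Col9a1, Col11a1, Col11a2 and Col27a1, the start-listed genes with several peaks, the peak nearest a listed start was the widest. How often this holds over all protein-coding genes was not counted. Over the whole day 20 list, peaks within 2 kb after a listed start had a median of 611 bp, close to the 603 bp of peaks in protein-coding genes.

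**Figure D3:**
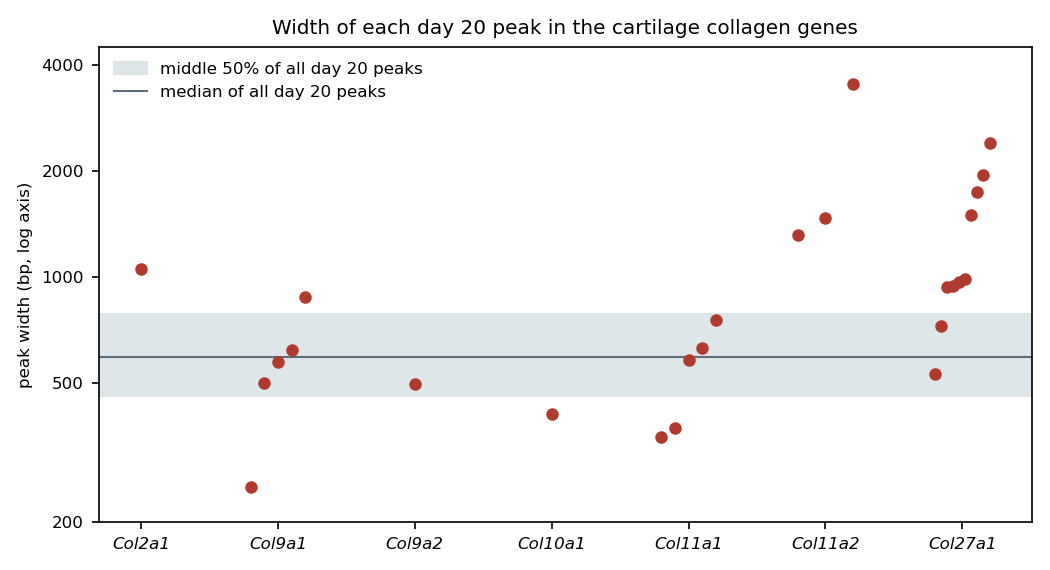
Width in bp, on a log axis, of each day 20 peak in the 7 collagen genes that held one; each point is 1 peak, the band holds the middle 50% of all day 20 peaks and the line is their median of 591 bp. All 3 Col11a2 peaks and 9 of 10 Col27a1 peaks lie above the line.

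Taking number and width together, day 20 peaks covered 25680 bp of the 490.3 kb in the 8 genes, or 5.24%, against 2.05% over all protein-coding genes. Of these bases 12662 were in Col27a1 and 5801 in Col11a2, so the pooled share comes largely from these genes and does not describe each of the 8. Col11a1 (1.41%) and Col9a3 (0%) lay below the 2.05%. Col2a1 was covered to 3.6%, Col9a1 to 3.75%, Col9a2 to 3.15% and Col10a1 to 2.39%. Each of these 4 lay above the median of its length decile and below the 90th percentile. For Col9a2 and Col10a1 that median was 0, so any peak at all would place them above it. Along the genes, 24 peaks in 5 genes with a listed strand had their midpoint inside the gene, and 15 of these lay in its first 50% (62.5%), against 52.8% of 24595 such midpoints over all protein-coding genes with a listed strand. In the last 20% lay 2 of the 24, both in Col27a1, against 18.9% over all.

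**Figure D4:**
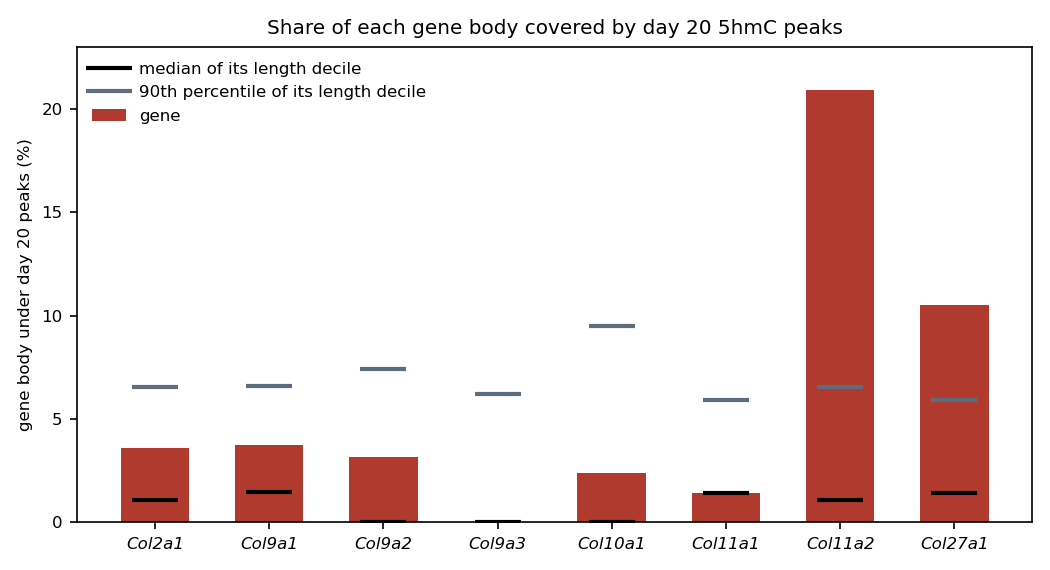
Bars give the percentage of each gene body under day 20 peaks, from a baseline of 0; black and grey marks give the median and the 90th percentile of the 2190 protein-coding genes in the same length decile. Col11a2 (20.9%) and Col27a1 (10.5%) stand above the grey mark and the other 6 genes below it.

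Every collagen gene had day 20 peaks within 100 kb of its ends, as did 79.8% of protein-coding genes. There were 57 such peaks, of which 33 overlapped another protein-coding gene and 20 overlapped no annotated gene. The median per collagen gene was 6.5, against 5 over all protein-coding genes (quartiles 1 and 9). Col2a1 had the most, with 14, and 7.63% of protein-coding genes had as many. Of these, 9 lay at lower coordinates, where 4 overlapped Vdr, the vitamin D receptor gene, and the nearest was 24.9 kb away (97949979 to 97950727). Of the 5 at higher coordinates the nearest was 16.9 kb away and 2 overlapped Senp1, a SUMO protease gene. In all, 7 of the 14 lay outside annotated genes. The adjacent gene Tmem106c, 5.32 kb below Col2a1, held none.

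Around the other genes the flanks ranged from sparse to full. Col27a1 had 11 flank peaks, including 3 in Akna, a further 2 in Whrn and 1 each in Zfp618, Ambp and Kif12, while Orm1, 9.56 kb above Col27a1, held none. Col9a3, with no peak of its own, had 10, among them 3 in Dido1 and 2 each in Ntsr1 and Gid8. The nearest lay 14.4 kb away in Mrgbp. The close neighbour Ogfr held none, nor did Tcfl5, which overlaps Col9a3. Col10a1 had 7, of which 3 were in Nt5dc1 and 2 in Tspyl4, and the neighbour Frk lay 86.3 kb above. Col11a2, which lies in the major histocompatibility complex, had 6, including a peak of 2348 bp in the zinc transporter gene Slc39a7 (34028572 to 34030919). The gene H2-Oa, 25.7 kb above Col11a2, held none. Col9a2 had 5, of which 3 were in Smap2 and 2 in Zmpste24. Col9a1 and Col11a1 had 2 each, all at lower coordinates, so the 100 kb beyond the end of each of these plus-strand genes was empty. The gene nearest to Col9a1 at lower coordinates, Fam135a, lay 77.1 kb away and held none. No other protein-coding gene lay in the Col11a1 flanks, with Rnpc3 400.3 kb below and Olfm3 683.3 kb above. For Col9a1 that stretch lies mostly within Col19a1, a related fibril-associated collagen gene whose nearer end lies 4.95 kb away.

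Around Col11a2, Col27a1 and Col2a1, the genes with peaks wider than 1000 bp, the median flank width was above the list median of 591 bp. Col2a1 held only 1 peak, and no share over all protein-coding genes was set beside this. The median flank width was 934 bp around Col11a2, where 6 of 6 were above the list median, and 748 bp around Col27a1, where 7 of 11 were. It was 869.5 bp around Col2a1, with 10 of 14 above the list median. Around Col9a1 and Col11a1 it was 528 and 408 bp, each from only 2 flank peaks. Around Col9a2, Col9a3 and Col10a1 it was 546, 428 and 487 bp.

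Other genes of the collagen system were read from 7 lists. Among fibrillar collagens outside the 8, 6 of 7 held a day 20 peak in the gene body, with 13 peaks in Col24a1, 11 in Col5a1 and 6 in Col5a2, and Col3a1 was the exception. Col5a3 held 1 day 20 peak and 1 day 0 peak of 122 bp (chromosome 9, 20812575 to 20812696), which overlapped each other. Among fibril-associated collagens outside type IX, 5 of 6 held a peak, with 12 each in Col12a1 and Col14a1 and 5 in Col22a1. Both type VIII genes, whose short chains resemble type X, held peaks, with 8 in Col8a1 and 1 in Col8a2. For comparison with the 40.5% background, these collagen genes are long, with a median length of 45.1 kb for the fibrillar and 167.7 kb for the fibril-associated list.

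Enzymes and chaperones that modify, fold and export procollagen held a day 20 peak in 15 of 24 genes, against 40.5% of all protein-coding genes, whose median length is 17.1 kb. The median length was 28.9 kb in this list, 57.9 kb in that of cleaving and cross-linking enzymes, 21.1 kb in that of receptors and partners and 110.2 kb in that of regulators, and longer genes more often hold a peak. P3h2, a prolyl 3-hydroxylase, held 8 peaks, Creb3l2, a transcription factor of the secretory pathway, held 7, and Colgalt2, a collagen galactosyltransferase, held 6. Enzymes that cleave and cross-link procollagen held a peak in 12 of 13 genes, with 13 in Adamts3 and 12 in Adamts2, both procollagen N-proteinases, and 9 in Tll2. Adamts3 also held a day 0 peak of 112 bp, which overlapped a day 20 peak. Collagen receptors and fibril-surface partners held a peak in 9 of 12, with 12 in the integrin gene Itga11, 9 in the collagen receptor gene Ddr2 and 5 in Itga2. Regulators of collagen genes in cartilage held a peak in 8 of 10, with 42 in Sox5, 28 in Runx2 and 14 in Sox6. By the authors' symbols these were 16, 19 and 14. Sox5 spans 953.9 kb, so its 42 peaks amount to 0.44 per 10 kb, against a median of 0.582 in this list. Sox9 held 1 day 20 peak and a separate day 0 peak (chromosome 11, 112785319 to 112785506).

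The same count of peaks after a start was made in these lists, with no test of a difference from the cartilage collagens. A day 20 peak within 2 kb after a listed start was found in 2 of 5 fibrillar collagen genes with a window, 1 of 3 fibril-associated, 0 of 2 type VIII, 5 of 18 modifying and export genes, 2 of 8 cleaving and cross-linking genes, 3 of 11 receptors and partners and 3 of 8 regulators. The shares over all genes with a window were 11.9%, and 29.4% where the gene body also held a peak. Every cartilage collagen gene with a window also held a gene body peak. Each of these lists except type VIII includes genes with a window and no gene body peak. Such genes can hardly add to the count, so these counts are not on a like basis with that of the cartilage collagens. By density the cartilage collagens had a median of 0.65 peaks per 10 kb, the fibrillar list 0.501, the fibril-associated list 0.265, the receptors and partners 0.74 and the cleaving and cross-linking list 0.545. It was 0.488 in the type VIII list, 0.285 in the modifying and export list and 0.582 in the regulators. Over all protein-coding genes it was 0. The cartilage collagens were therefore not the densest of these lists, and only the receptors and partners lay above them.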

How the data were processed

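Per the file headers, the authors merged the samples of each stage and listed peaks that were 10-fold enriched, without saying over what. The deposited columns gave each peak's start and end in bp together with a symbol and accession, and no height, fold or p-value. The submitters' processing notes name FastQC, cutadapt, BWA, MACS 1.4.2 and GRCm38 (mm10) without roles or order. Read depth was unknown. In the day 20 list, 3 entries without a readable end were left out.

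Gene positions and start windows came from RefSeq (GRCm38.p6). Exon annotation was not used here. Strand came from the start windows. An overlap of 1 bp or more placed a peak in a gene. For counts by the authors' symbols outside the 8 genes, entries were matched by accession, then by current or older symbol. Length deciles were taken over protein-coding genes. Named genes were the 8 collagen genes, up to 3 genes with the most day 20 peaks and every gene with a day 0 peak in each of 7 lists, and the neighbours; genes named for having no peak were picked with their values in view. The members and lists were chosen with earlier results of these data known. Overlap counting was tested on simulated data and gave the right count in 300 of 300 genes. Computation used Python 3.11.15, numpy 2.4.6, pandas 2.3.3 and matplotlib 3.10.9.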

Additional observations from a re-analysis of the deposited data

How the results depend on the processing

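Counting by gene body overlap, with 5 kb on both sides of the gene or with peaks within 1 kb merged gave 26, 27 and 26 peaks in the collagen genes, against the 26 reported. Keeping peaks at least as wide as the median of the day 20 list left 17 and lowered the median density from 0.65 to 0.186 per 10 kb, since fewer peaks were counted. The number of genes with a day 20 peak ranged from 5 to 7 of 8 over 4 alternatives. By construction, flank peaks fell from 57 to 30 within 50 kb and rose to 98 within 200 kb. Day 0 counts in the genes and flanks, and shared peaks, were 0 under each alternative run. The day 0 peak closest to any of the 8 genes lay 388.1 kb away, so alternatives by overlap or distance could not give another value. The number of genes with a peak in each of the 7 comparison lists stayed within 1.5 times by the authors' symbols and with 5 kb on both sides. The distances of 1 and 5 kb after a start were added after seeing the data. No paired analysis was possible because each stage is 1 merged list, and for the same reason no replicate could be left out. With read depth unknown, the absence of a peak cannot be read as absence of 5hmC.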

Other observations

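The microRNA gene Mir140, the other microRNA best known from cartilage, was looked at after the peak beside Mir455 was seen. It lies in Wwp2 on chromosome 8 (107551244 to 107551313), a gene with 10 day 20 peaks. A day 20 peak of 1349 bp (107549361 to 107550709) ended 534 bp before it, while at Mir455 the gap was 219 bp. Both were chosen with their values in view, and 10.1% of annotated microRNA genes had a day 20 peak within 1 kb. The 3p arm, as RefSeq gives it, is printed with the seed (bases 2 to 8) in capitals; the 5p arm was not analysed here. The seed of this arm differs from those of both miR-455 arms.
mmu-miR-140-3p: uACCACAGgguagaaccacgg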
